A study of Mus musculus with 15 samples.

Results

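Tfrc encodes transferrin receptor 1, the cell-surface protein that binds iron-loaded transferrin and carries it into the cell. It is described here in mouse liver after ischaemia-reperfusion, with and without a preceding short ischaemia. The gene was chosen by its values in these 3 groups, which were known beforehand, so its levels and differences are given as a description without a test. It is 1 gene of 15 that the array's files name by a RefSeq accession. Its probe, designed on the mRNA NM_011638, was printed in 20 spots on each of 15 arrays.

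All samples were liver RNA of C57BL/6 mice, 1 array per sample and 5 arrays in each of 3 groups. Sham mice had a laparotomy and handling of the liver hilum with no vessel clamped. In the I/R group the left lateral and median lobes, 70% of the liver, were clamped for 75 min and reperfused for 2 h. The IPC group (ischaemic preconditioning) had 10 min of ischaemia and 10 min of reperfusion before that same sequence. The anaesthetic was sodium pentobarbital, and body temperature was kept up with a lamp. The sources used here give neither sex nor age. The study design speaks of 18 mice, 6 per group, and nothing ties an array to a mouse, so the spread over arrays may be partly technical. None of the 32 liver, blood and immune cell markers that were listed has a probe named in the sources used here, so the labelled tissue could not be checked against them.

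Cells take up iron when transferrin bound to the receptor is drawn into endosomes, where the lower pH frees the iron, and the receptor returns to the surface. The amount of receptor mRNA is set in part by iron regulatory proteins, which bind hairpins in the 3′ end of the mRNA and protect it from decay when iron is scarce. Hypoxia-inducible factors are also known to raise its transcription. Liver handles much of the body's iron, and hepatocytes carry this receptor beside its relative transferrin receptor 2.

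The mouse gene lies on chromosome 16, from 32608896 to 32632794 on GRCm38.p6. The array grid was made on mm9, and no coordinate was converted. RefSeq gives this gene 2 transcript starts, at 32608896 and 32609122. The hypoxia-inducible factor core motif was searched in the window from 250 bases before to 50 bases after each start, as ACGTG and as GCGTG on both strands. The letters ACGTG occur once in each window, at the same place, which begins 2 bases before the first start and 228 before the second. The site is shown because it is the core to which hypoxia-inducible factors bind. It was read from the RefSeq table of GRCm38.p6 at chr16:32608882-32608911, plus strand, with the motif in capitals.
Tfrc start region: ctcggtaggtgtACGTGcggaaggaagtga
ACGTG was present on either strand in 19.6% of all 32851 windows of this length. GCGTG occurred 2 times in each Tfrc window, and 32.4% of all windows hold it. A match is a string of letters, and no binding was measured here.

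The level of Tfrc differed in steps between the groups: lowest in sham liver, higher after I/R and highest after IPC and I/R. Levels are on a log2 scale: the background-corrected signal of each spot relative to the 75th percentile of all spots on its array, averaged over the Tfrc spots. The group means were 4.24 ± 0.0496 in sham, 4.51 ± 0.0826 in I/R and 4.89 ± 0.0602 in IPC (SD, n = 5 arrays each). In whole-liver RNA, a change in the number of cells of a type and a change in the RNA per cell cannot be told apart.

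On sham arrays 1 to 5 the level was 4.18, 4.24, 4.31, 4.21 and 4.27. I/R arrays 1 to 5 gave 4.53, 4.55, 4.59, 4.38 and 4.49. IPC arrays 1 to 5 gave 4.89, 4.91, 4.80, 4.97 and 4.90. No array of one group reached into the range of another. The narrowest gap, 0.07, lay between sham array 3 and I/R array 4, while 0.21 separated I/R array 3 from IPC array 3. Inside each group, neighbours in this order differed by 0.01 to 0.11, so the order of arrays within a group carries no more than the spread.

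**Figure D1:**
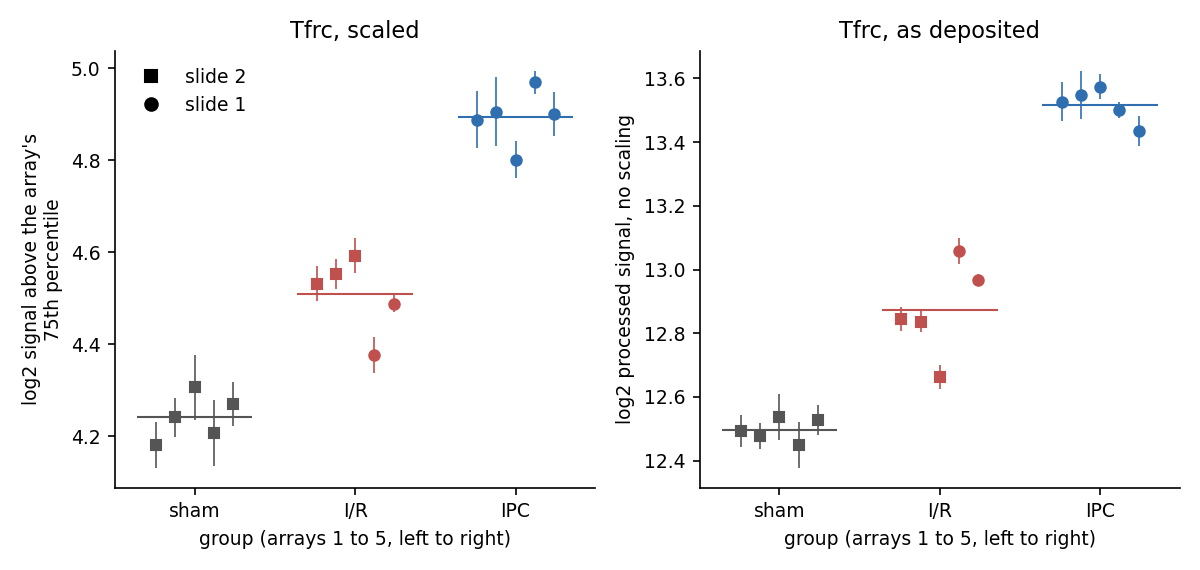
Tfrc on each of the 15 arrays, in log2 units above the 75th percentile of the array (left) and as the deposited log2 signal without scaling (right). Points are arrays, with bars of 1 SD over the spots, and horizontal lines are group means. The marker shape gives the slide, here a set of arrays with the same scan time. On both scales all sham arrays lie below all I/R arrays and these below all IPC arrays.

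The first comparison sets I/R against sham, that is, livers with clamping and reflow against livers without. The difference was 0.27 ± 0.0431 (SE; log2), a 1.20-fold higher level in I/R, and 3.92 times the pooled SD of the arrays. The median difference of the 34985 probes above background was -0.03. All 5 I/R values exceeded all 5 sham values, as was the case for 10.2% of those probes in this direction. In the opposite direction it was 13.0%, and the balance turned when only probes detected on every array set the percentile, to 14.9% higher and 9.72% lower. A larger rise in the mean was seen for 6354 probes (18.2%). The separation was lost when arrays were scaled by the median of all probes, where I/R array 4 stood at 6.91 and sham arrays 2, 3 and 5 at 6.91, 6.99 and 6.96. The difference of means on that scale was 0.24 ± 0.0737.

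The second comparison sets preconditioned livers against livers that had the same ischaemia and reperfusion alone. Tfrc was not lower in the preconditioned livers: it was higher by 0.38 ± 0.0457 (SE; log2), 1.31-fold. This was 5.33 times the pooled SD. All 5 IPC values exceeded all 5 I/R values, which held for 3.97% of the probes above background in this direction and for 4.41% in the other, or for 1.21% and 3.17% with the median of all probes as the scale. A larger rise was seen for 2403 probes (6.87%), and the median over the probes above background was 0.01.

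In IPC against sham, the 2 differences add up to 0.65 ± 0.0349 (SE; log2), 1.57-fold and 11.8 times the pooled SD. Groups that did not overlap with IPC higher were found for 11.5% of the probes above background and with IPC lower for 15.9%, and 1800 probes (5.15%) had a larger rise. The shares were 5.89% and 18.7% with the median of all probes, and 16.7% and 11.9% when only probes detected on every array set the percentile. These comparisons share arrays: sham arrays enter both comparisons with sham, and I/R arrays both comparisons with I/R.

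The full step pattern, with all sham arrays below all I/R arrays and all of these below all IPC arrays, was shown by 126 of the 34985 probes (0.36%). The opposite order, stepping down without overlap, was shown by 142 probes (0.406%). On this scale Tfrc was the only one of the 15 named genes with the rising pattern, which is also the pattern it was chosen for. Both numbers depended on the scaling. With the median of all probes 32 stepped up, Tfrc not among them, and 92 down. With quantile normalization the numbers were 156 and 162, and when only probes detected on every array set the percentile they were 247 and 145. Without any scaling 676 stepped up and 6 down.

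The arrays fell into 2 sets by the scan times in the file headers. Each set is called a slide here, which is inferred from the scan times alone. All sham arrays and I/R arrays 1 to 3 were on slide 2. I/R arrays 4 and 5 shared slide 1 with all IPC arrays. Brightness differed: the 75th percentile lay between 8.48 and 8.77 (log2) there and between 8.07 and 8.31 on slide 2. Within slide 2 Tfrc was higher in I/R than in sham by 0.32 ± 0.0283 (SE, 3 against 5 arrays), and the groups were 0.23 apart. Within slide 1 it was higher in IPC than in I/R by 0.46 ± 0.0622 (SE, 5 against 2 arrays), with a gap of 0.31. On this scale both steps were larger inside a slide than over all arrays (0.27 and 0.38). Without scaling they were smaller inside a slide than over all arrays (0.38 and 0.64). The unscaled means were 12.50 in sham and 12.78 in I/R on slide 2, and 13.01 in I/R and 13.52 in IPC on slide 1. The part of the slide in the levels was not tested. No slide holds both sham and IPC arrays. Their difference with slide as a term in a linear model was 0.78 ± 0.0604 (SE), which rests on the I/R arrays of both slides.

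The I/R group itself was split along the slides. Its 3 arrays on slide 2 averaged 4.56 and its 2 arrays on slide 1 averaged 4.43. Before scaling the order was the opposite, with processed signals of 7361, 7309 and 6483 on slide 2 and of 8528 and 8013 on slide 1. I/R array 4 had the highest 75th percentile of its group, 8.68, and the lowest scaled Tfrc level. IPC array 3, which had the highest percentile of all 15 arrays (8.77), also had the lowest Tfrc level of its group, and the same held for sham array 1 with 8.31. The part of this in the levels was not tested.

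On the deposited scale the signal of Tfrc was 5590 to 5945 on the sham arrays, 6483 to 8528 on the I/R arrays and 11067 to 12200 on the IPC arrays. The ratio of the median spot signal to its local background was 113.7 ± 7.96 in sham, 152.6 ± 7.49 in I/R and 237.5 ± 10.1 in IPC (SD, n = 5). The local background itself was alike, with group means of 51.9, 49.9 and 49.7. All 300 Tfrc spots were well above background and none was saturated. Unscaled, the SD over sham arrays was 0.0365 and that over IPC arrays 0.0539, both smaller than after scaling, while that over I/R arrays was 0.150. The unscaled IPC minus sham difference was 1.02, where the median difference of the 34985 probes above background was 0.36.

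The 20 spots of the probe lie scattered over the array, from row 15 to row 379, and each position is the same on every array. Over the spots of an array the SD was 0.0177 to 0.0753, so the error of an array's mean from its spots was 0.00456 to 0.0168. That is well under the SD between arrays of a group, 0.0496 to 0.0826, so the limit on precision is the number of arrays and not the number of spots. Of the 300 spots, 16 on 5 arrays were marked as outliers by the scanner software and left out, at most 5 on an array. The marked spots were on sham array 2, I/R arrays 3, 4 and 5 and IPC array 4.

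Each position taken alone gave the same order of group means. I/R was above sham at 20 of 20 positions, by 0.22 to 0.35, and at 16 positions the 2 groups did not overlap. IPC was above I/R at 20 of 20 positions, by 0.27 to 0.43, and IPC above sham at 20 of 20, by 0.57 to 0.71, with no overlap at any of the positions in either comparison. The positions share the same RNA and array and are not replicates. A small effect of place was seen: the position means deviated from their array's mean by -0.0520 at row 132 to 0.0372 at row 67, which is less than the smallest step between groups.

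**Figure D2:**
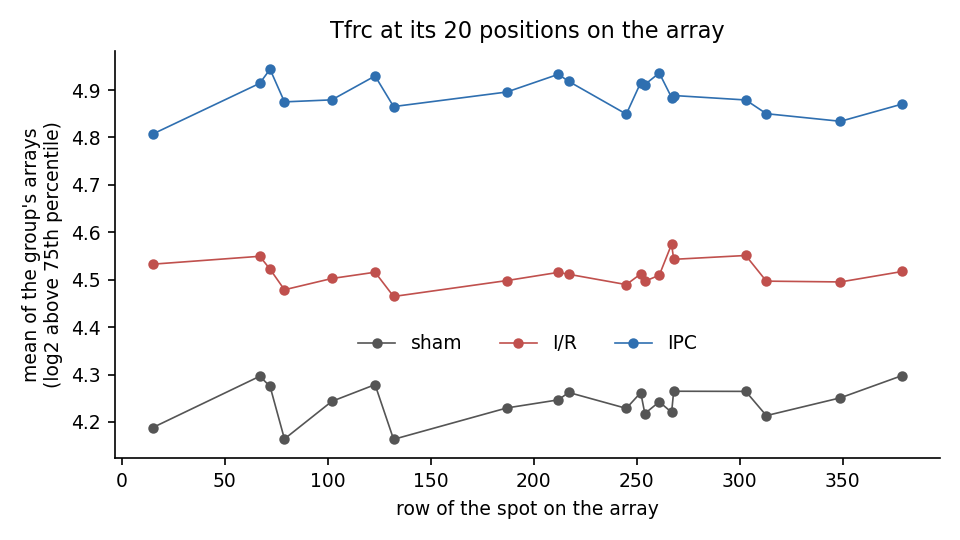
Mean Tfrc level (log2 above the 75th percentile) of the sham, I/R and IPC arrays at each of the 20 spot positions, against the row of the spot on the array. The 3 lines stay apart over the whole array, from row 15 to row 379.

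The array's 14 other named genes are mostly ones used to scale expression measurements, and Tfrc is often put among them. Setting Tfrc against each of them within the array removes any choice of percentile. Relative to them, Tfrc was higher in IPC than in I/R for 14 of 14 genes, and the groups did not overlap for 13. The relative difference had a median of 0.33 and ran from 0.15 against Ldhal6b, a testis-type lactate dehydrogenase gene whose own level had an SD of 0.40 to 0.47, to 0.48 against G6pd2, a retrogene of glucose-6-phosphate dehydrogenase. For IPC against sham it was above 0 for 14 of 14 genes, from 0.11 against Actb to 1.00 against Tuba1b, with a median of 0.74 and no overlap for 12. The genes' own levels had a median difference of 0.05 in IPC against I/R and of -0.09 in IPC against sham. In the latter, 6 genes were lower in IPC without overlap and 1 was higher, beside 15.9% and 11.5% of the probes above background. All 14 ratios share the Tfrc values by which the gene was chosen, so these counts restate 1 profile and are not independent. By level alone, IPC was higher without overlap for Tfrc in both comparisons. The same held for 3.97% (against I/R) and 11.5% (against sham) of the probes above background.

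In I/R against sham, Tfrc was higher relative to 13 of the 14 genes, with a median of 0.43 and no overlap for 10. The exception was Actb, cytoplasmic beta-actin, against which the relative level of Tfrc differed by -0.35 ± 0.0608 (SE), lower in I/R. The largest relative rise, 0.71 ± 0.0303 (SE), was against Tuba1b, an alpha-tubulin. Against Hprt, the purine salvage enzyme, the relative level had the smallest SE of the 14, with a difference of 0.13 ± 0.0115 (SE) for the first comparison. A ratio shows unequal change and not which of its 2 genes moved. The 14 genes' own levels had a median I/R minus sham difference of -0.17, where that of Tfrc was 0.27. Without overlap, 8 of them were lower in I/R and 1 was higher. The shares over the probes above background were 13.0% and 10.2%. These 14 ratios, too, share the Tfrc values. By level alone, I/R was higher than sham without overlap for Tfrc and for 10.2% of the probes above background.

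Likeness of pattern was measured as the root mean square distance, over the 15 arrays, between 2 profiles that are each set to 0 at their sham mean. The 3 nearest named genes were Actb at 0.23, Hprt at 0.32 and Gk, glycerol kinase, at 0.37. Actb shared the higher level on the arrays of both clamped groups but not the steps. Its means were 5.42 in sham, 6.04 in I/R and 5.97 in IPC, so that its level in IPC was -0.08 relative to I/R where that of Tfrc was 0.38. Hprt stood at 6.21, 6.34 and 6.32, and Gk at 0.10, 0.12 and 0.20. For Hprt and for Gk the groups overlapped in each comparison. Being nearest is thus a rank among the named genes and does not mean that the steps are shared. The 2 farthest were Ppia (cyclophilin A), at 0.58, and Tuba1b, at 0.71. Ppia had means of 8.72, 8.45 and 8.53 and Tuba1b of 6.22, 5.77 and 5.88, both lower in the clamped groups than in sham. As a measure of the spot noise in such a distance, alternate spots of Tfrc itself were 0.0246 apart.

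**Figure D3:**
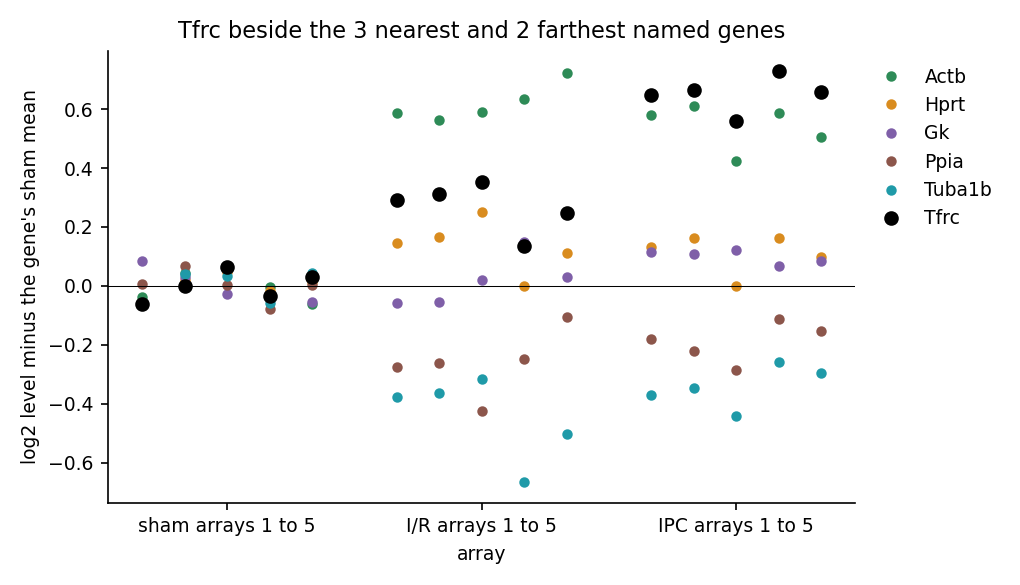
Level of Tfrc (black) and of its 3 nearest and 2 farthest named genes on each array, in log2 units relative to the gene's own sham mean. Tfrc lies between Actb and the other genes on I/R arrays 1 to 3 and 5 and above all 5 of them on IPC arrays 1 to 5.

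Nearer to Tfrc than Actb were 1051 of the 34970 tested probes without a gene name (3.01%). The median distance of those probes was 0.50. The nearest, ASMM10P052668, was 0.0573 away, with levels of -0.39 ± 0.0416 in sham, -0.11 ± 0.113 in I/R and 0.26 ± 0.0806 in IPC (SD, n = 5). Next came ASMM10P047678, 0.0661 away, with -0.77, -0.51 and -0.17. No table used here pairs these probes with genes, so whether one of them measures Tfrc is unknown.

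Of the other genes known from iron handling and hypoxia, few could be followed. None of a list of 25 genes of iron handling (transferrin, the ferritin chains, ferroportin, hepcidin, iron regulatory proteins and the like) has a probe named in the files. Of 20 genes of the hypoxia response, Gapdh has a named probe and Pgk1, the glycolytic phosphoglycerate kinase, has control spots. The named probe of Gapdh, a glycolytic enzyme, had means of 8.57 ± 0.0600 in sham, 8.33 ± 0.0593 in I/R and 8.37 ± 0.0643 in IPC (SD, n = 5), with all I/R arrays below all sham arrays, a direction in which 13.0% of the probes above background had groups that did not overlap. The 5′ control spots of Gapdh stood at 6.62 ± 0.0520, 6.64 ± 0.0566 and 6.71 ± 0.0433, with groups that overlapped in each comparison. The control spots for the 3′ end of Pgk1 stood at 7.52 ± 0.0474, 7.38 ± 0.0447 and 7.44 ± 0.0546, again with I/R below sham on every array. The 3′ control spots of Gapdh had means of 7.54, 7.17 and 7.29, and the 5′ control spots of Pgk1 of -0.07, -0.36 and -0.42. In both sets all I/R and all IPC arrays lay below all sham arrays, as for the named Gapdh probe. IPC was below sham without overlap for 15.9% of the probes above background.

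The control spots also give a view of how evenly mRNAs were labelled along their length. For Gapdh the 3′ spots exceeded the 5′ spots by 0.92 ± 0.0706 in sham, 0.53 ± 0.147 in I/R and 0.58 ± 0.0546 in IPC (SD, n = 5, log2), without overlap between sham and either clamped group. For Pgk1 the same excess was 7.60 ± 0.0521, 7.74 ± 0.176 and 7.86 ± 0.0704, with no overlap between sham and IPC. Against sham, the mean excess in the clamped groups was thus lower for Gapdh and higher for Pgk1. The measures went in opposite directions and give no single view of the labelling. The Gapdh measure moved between sham and I/R, where Tfrc was higher by 0.27, and differed by 0.05 between I/R and IPC, where Tfrc was higher by 0.38. The means of the Pgk1 measure had the same order as those of Tfrc, with steps of 0.14 and 0.13 at which the groups overlapped and a difference of 0.27 between IPC and sham. The part of either measure in the Tfrc levels was not tested, and the sources used here do not give the place of the Tfrc probe on its mRNA.

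The order sham, I/R, IPC of the group means of Tfrc held under each scaling, each way of averaging the spots and each treatment of the slides that was tried. The size depended on the scaling. For IPC against sham it ranged from 0.56 ± 0.0621 with the median of all probes to 0.75 ± 0.0187 with quantile normalization and 1.02 ± 0.0291 with none. For IPC against I/R the scaled values lay between 0.32 and 0.42 and the unscaled one at 0.64. For I/R against sham the values ran from 0.24 to 0.38. Leaving out any 1 array moved these differences to 0.25 to 0.30 for I/R against sham, 0.35 to 0.41 for IPC against I/R and 0.63 to 0.67 for IPC against sham.

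**Figure D4:**
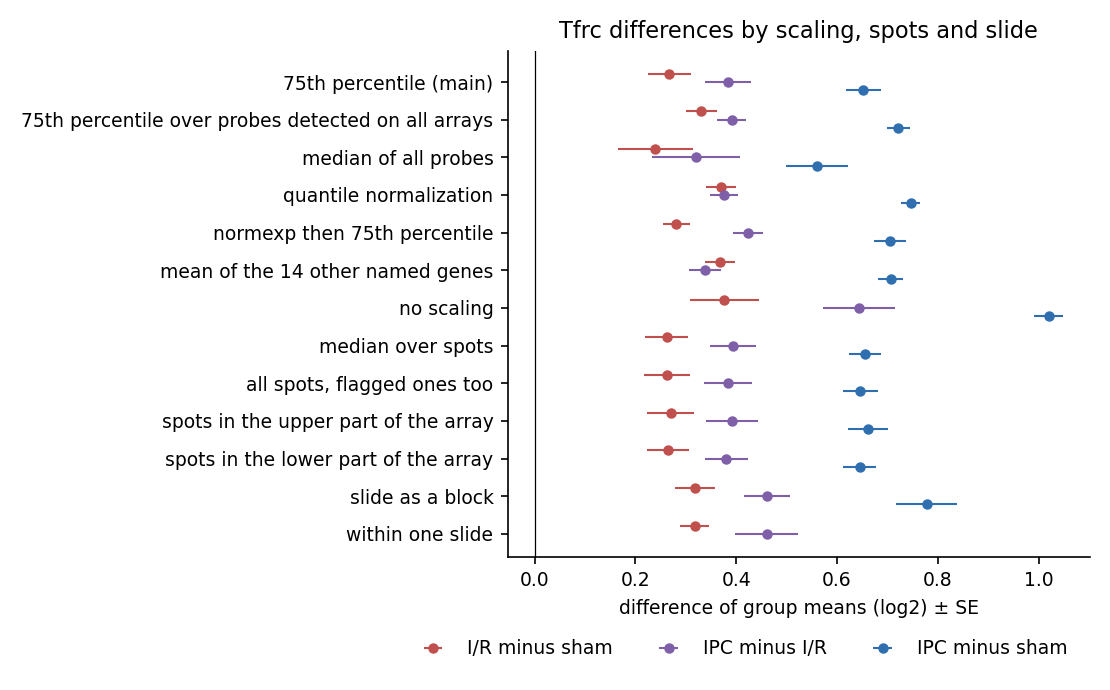
Difference of the Tfrc group means (log2, points) with its SE (bars) in the 3 comparisons, by scaling, by the spots used and by the treatment of the slides. All points lie above 0, and the IPC minus sham difference is the largest under every setting in which it could be computed.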

How the data were processed

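Per the labels' protocols, total RNA was amplified with random primers and labelled with Cy3, and 1 array was hybridised per sample. The values in the deposited files are spot intensities from Agilent Feature Extraction 11.0.1.1, whose processed signal is background-corrected within an array, per the file headers. The sources used here give no later step of the authors.

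Left out were control spots, 300 spots of negative-control probes and spots that the scanner software had flagged as outliers. Each array's 75th percentile was taken over the remaining spots, and spots of 1 probe were averaged on the log2 scale (60915 probes). Counts over probes used the 34985 well above background on at least 5 of 15 arrays. The 15 RefSeq accessions matched symbols in a RefSeq table of GRCm38.p6. Groups came from the sample titles. The SE of a difference comes from the SDs of its 2 groups.

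The gene, the lists and the comparisons were chosen with earlier results of these data known, so no test was run. The named genes are the 3 nearest and 2 farthest by distance, measured list members and those with the lowest or highest ratio to Tfrc; of unnamed probes, the 2 nearest. The pattern over 3 groups was counted after the data had been seen. The counting script was tested on simulated data. Alternatives were scalings, normexp (limma 3.58.1, R 4.3.3, offset 50) on the median signal and background intensities, the spots used, slide, and leaving out arrays. Other work used Python 3.11.15, numpy 2.4.6, pandas 2.3.3 and matplotlib 3.10.9. Precision is limited by the number of arrays.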

Additional observations from a re-analysis of the deposited data

How the results depend on the processing

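The 3 Tfrc differences kept their sign under all alternatives run. Those that moved by more than the spread between arrays were: without scaling 0.38 (I/R minus sham), 0.64 (IPC minus I/R) and 1.02 (IPC minus sham); by the mean of the 14 other named genes 0.37 (I/R minus sham); by quantile normalization 0.37 (I/R minus sham) and 0.75 (IPC minus sham). For IPC minus sham they were also 0.72 with the percentile over probes detected on all arrays, 0.56 with the median of all probes and 0.78 with slide as a block. For IPC minus I/R it was 0.46 with slide as a block and the same within slide 1. For quantile normalization and slide the cause was not tested. The others shift an array's probes alike. Leaving out 1 array gave 0.25 to 0.30, 0.35 to 0.41 and 0.63 to 0.67.

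The number of probes whose groups did not overlap, in either direction, was 8110 for I/R against sham, 2933 for IPC against I/R and 9559 for IPC against sham. For IPC against I/R it was 1534 (424 higher and 1110 lower) with median scaling. Leaving out 1 array, which separates groups more easily, gave 3209 to 4494, the highest without I/R array 4; the other comparisons gave 8592 to 9629 and 10091 to 10843. Without the filter on dim probes IPC against sham gave 20395 of 60812 probes, most of them lower (16046). When only probes detected on every array set the percentile, higher probes became the majority in IPC against sham (5835 higher and 4169 lower), against 4011 and 5548 in the main setting; with the median of all probes they were 2059 and 6550. Actb, Hprt and Gk were the nearest named genes, in this order, with quantile normalization (Actb at 0.22) and without any 1 array, where the distance of Actb was 0.19 to 0.24. Scaling by another percentile or the median leaves these distances as they are by construction, since it shifts all genes of an array alike.

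With the replicate block, taking differences between arrays of the same number, the differences stay 0.27 ± 0.0324, 0.38 ± 0.0619 and 0.65 ± 0.0451 (SE), as the groups are balanced. Arrays of the same number correlated in their deviations with r from -0.37 to 0.51 over the 15 pairs, across probes. No pairs of unlike number are set beside these, so whether the numbers pair the arrays cannot be told. Scaling by spike-in spots was not run, as 2 of 350 such spots were well above background on all arrays.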
